A study of Mus musculus with 8 samples.

Results

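The clustered protocadherins were taken as every row of the deposited table whose mouse symbol names a numbered Pcdha, Pcdhb, Pcdhga, Pcdhgb or Pcdhgc gene, or Pcdhac1 or Pcdhac2, and 58 of the 55487 genes listed met that rule. They comprised 14 members of the alpha cluster, 22 of the beta cluster and 22 of the gamma cluster. The RNA was cortical, taken from mouse embryos at E18.5, with 4 control libraries and 4 libraries labelled Upf2cKO. The series sets out to describe what the loss of Upf2, which nonsense-mediated mRNA decay (NMD) needs, does in the developing cortex. NMD degrades transcripts whose stop codon lies well upstream of an exon junction. Controls 1, 3 and 4 carried the genotype Upf2 fl/fl, control 2 carried Upf2 fl/+, and no control carried a Cre transgene. All 4 Upf2cKO libraries carried Upf2 fl/fl with Emx1-Cre. Emx1-Cre acts in the progenitors of the dorsal forebrain, so interneurons that migrate in from the ventral forebrain, microglia and vessels of the same cortex do not descend from recombined cells. The strain of the mice, and whether the libraries of a group came from separate embryos or litters, were not given in the sources used here, and p-values thus measure only the spread between these particular samples, which may be partly technical.

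Clustered protocadherins are cell surface adhesion proteins of the cadherin superfamily that bind the same isoform on a facing membrane. Each alpha and gamma gene has its own variable exon, with its own promoter, that encodes the extracellular and transmembrane part and is spliced to a set of constant exons shared by the whole cluster, whereas beta genes are single-exon units with no constant part. A neuron expresses a small, largely random set of the alternate isoforms, chosen through DNA methylation and through loops between promoters and enhancers that CTCF and cohesin hold, and this set serves as a surface code by which a neuron tells its own branches from those of other cells. The C-type members at the end of the alpha and gamma clusters (Pcdhac1, Pcdhac2, Pcdhgc3, Pcdhgc4 and Pcdhgc5) are regulated differently, being expressed by many neurons at once rather than by random choice.

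The values are CPM, read counts scaled to a common total of reads assigned to genes, and by estimate 96.5 M to 156.0 M reads had been assigned in a library. Upf2 itself stood at 60.01, 58.07, 68.48 and 60.70 CPM in controls 1 to 4 and at 135.33, 139.45, 141.84 and 153.61 CPM in Upf2cKO 1 to 4. That whole-gene value includes exons outside the floxed part and does not check the deletion. Of 16573 genes tested with limma on log2(CPM + 0.1), 63.0% passed an adjusted p of 0.05, 36.7% being higher and 26.3% lower in Upf2cKO, and the median log2 change was 0.04. Library Upf2cKO 1 stood apart, where Camk2a reached 339 CPM and Mbp 225 CPM while the rest of its group held 41.5 to 45.2 CPM and 16.1 to 17.8 CPM. Control 1 was also highest in its group for both genes, though by less. Camk2a stood at 96.72 CPM there against 47.74 to 61.34 CPM in the other controls, and Mbp at 65.49 against 28.59 to 34.04 CPM. Ttr, a choroid plexus marker, reached 119 CPM in library control 4 and 258 CPM in library Upf2cKO 4 and no more than 28.5 CPM elsewhere, so results are also given without these libraries where that matters. None of the 16 excitatory neuron markers of the cortex was under 0.5 CPM in every library.

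Across the 3 clusters, single members moved in both directions while the summed CPM of the measured members of each cluster, which leaves out the shared exons, differed little between the groups. The largest rise was that of Pcdhgb8, at 6.17-fold, and the falls of largest size were those of the C-type members Pcdhac2 and Pcdhgc3. Of the 58 members, 54 passed the filter on low values (at least 0.5 CPM in at least 4 of 8 libraries). Among the 54, 22 passed the test, or 40.7%, against 63.0% of all genes tested; 16 rose (29.6% against 36.7%) and 6 fell (11.1% against 26.3%), and 32 did not pass. The median log2 change of the 54 was 0.08. Over the 9133 tested genes within the range of mean CPM of the tested members, 37.5% rose, 25.4% fell and the median was 0.06. The 2 groups of libraries did not overlap for 18 of the 54 members, whereas they did not overlap for 56.6% of all genes tested.

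The alpha cluster had 6 members higher and 1 lower among 12 tested, with a median log2 change of 0.23. The beta cluster had 4 higher and 2 lower among 21 tested, with a median of 0.06. In the gamma cluster 6 rose and 3 fell among 21 tested, with a median of 0.03. The split depends on how the libraries are scaled: after rescaling by the median of ratios, 30.9% of all genes were higher and 35.0% lower, and the counts became 5 and 1 in the alpha cluster, 2 and 4 in the beta cluster and 4 and 3 in the gamma cluster. Of the 22 calls, 16 (11 higher, 5 lower) were made under all of the 18 alternative settings in which the member was tested. Without Upf2cKO 1, the counts higher and lower were 5 and 1, 4 and 2, and 6 and 3 in the same order of clusters.

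**Figure D1:**
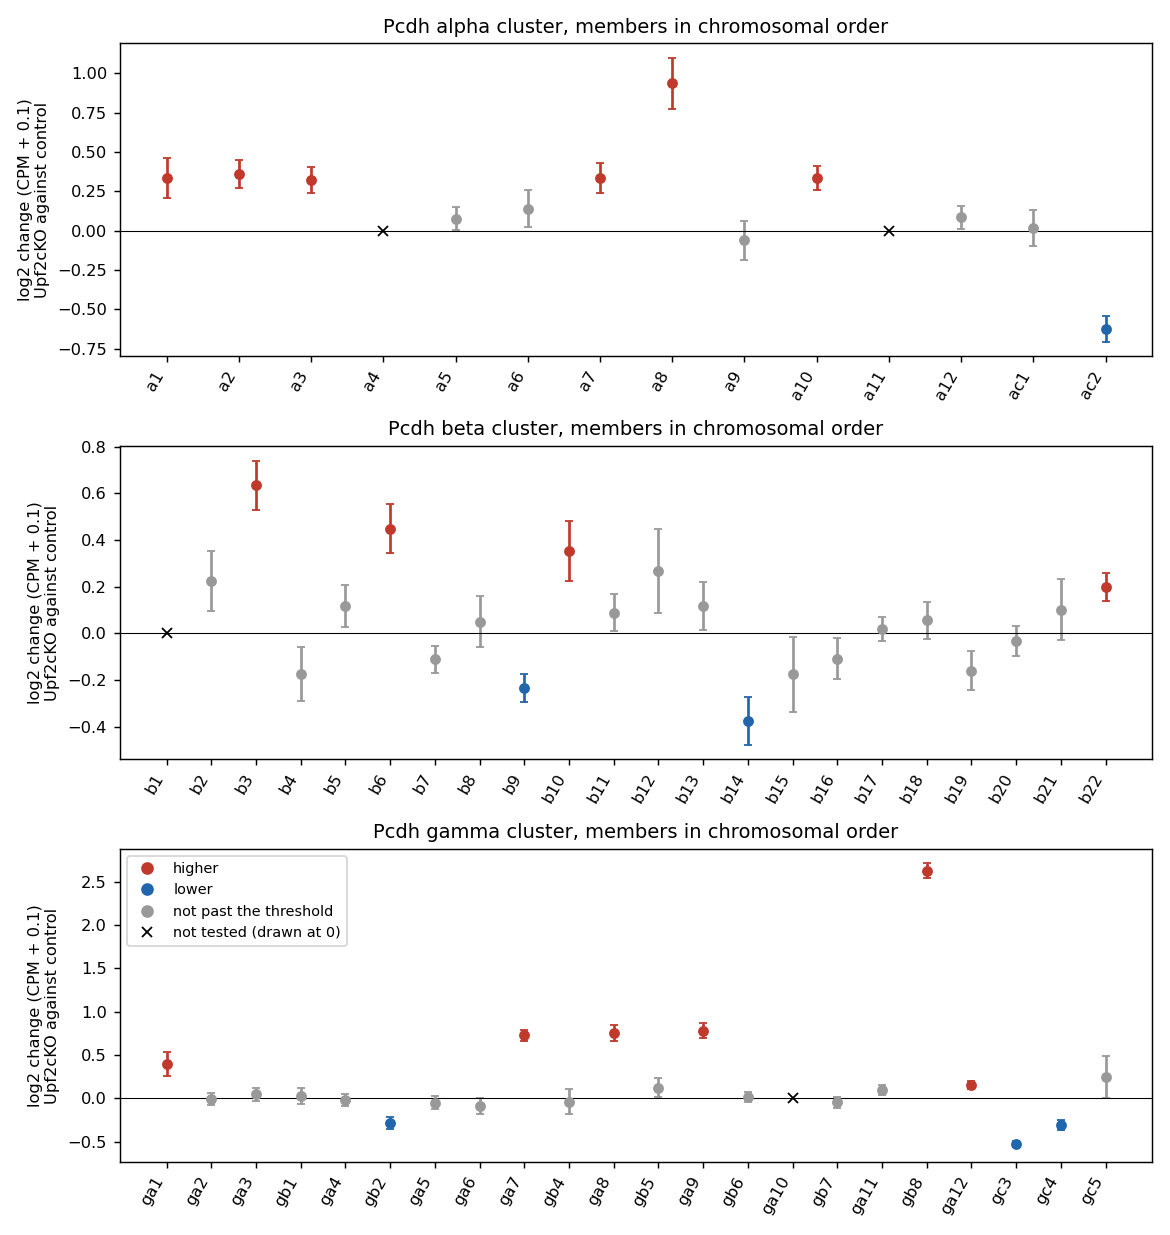
Log2 change of CPM + 0.1 in Upf2cKO against control for each member, in the order of the members along the chromosome, with 1 panel per cluster. Points are limma estimates, bars are standard errors, red is higher, blue is lower and grey did not pass the test. Pcdhgb8 at 2.63 stands above every other member, and the falls of Pcdhac2 (-0.62), Pcdhgc3 (-0.53) and Pcdhgc4 (-0.31) lie near the downstream ends of the alpha and gamma panels. Crosses mark the 4 members not tested.

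All members lie on the plus strand of mouse chromosome 18 (mm10). The alpha cluster runs from 36930184 to 37187661, the beta cluster from 37264938 to 37524479 and the gamma cluster from 37661793 to 37841873. Since all alpha genes share their constant exons, and all gamma genes theirs, the way reads in shared exons were counted decides what a value stands for. Genes with no exon base free of another gene on the same strand were listed at 0 in all 8 libraries in 99.9% of 762 cases, and genes covered only once the other strand is included in 99.8% of 458 cases, against 31.6% of the 54007 other genes. Reads that fall on bases shared with another gene on either strand therefore seem not to have entered the deposited values, and an alpha or gamma value stands for the variable exon and other bases of that gene alone. If strand was ignored in this way, antisense reads over bases with no other annotated gene would count toward the member. The constant exons, and so the summed output of a cluster as full transcripts, were not measured. Whether reads that match several members were kept was not given in the sources used here, which means that values of members with near-identical neighbours are uncertain.

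That way of counting bears on the 4 members not tested. Pcdhga10 has 0 bases free of other genes, since the antisense transcript Gm26672 lies across its variable exon, and it was listed at 0 in all 8 libraries, which says nothing of its expression. Pcdha4, with 404 bases of its own, stood at 0.23, 0.16, 0.25 and 0.17 CPM in controls 1 to 4 and at 0.22, 0.18, 0.10 and 0.24 CPM in Upf2cKO 1 to 4. Pcdha11 reached at most 0.23 CPM over 1268 bases of its own. Pcdhb1, whose 2588 exon bases are all its own, stood at 0.04, 0.13, 0.01 and 0.00 CPM in the controls and at 0.00, 0.04, 0.00 and 0.07 CPM in Upf2cKO, so it was the only member with a fully measured exon that was near 0 throughout. The gene that GENCODE labels as a copy of Pcdha11 lies at the place of Pcdha10 in RefSeq and is called Pcdha10 here.

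To compare levels between members, CPM was divided by the kilobases of exon free of other genes. In the controls the highest level belonged to Pcdhgc3, at 30.1 ± 0.446 CPM per kb of own exon (SD, n = 4). No other member overlapped its range. Then came Pcdhga11 at 11.3 ± 0.542, Pcdhga3 at 10.8 ± 1.14, Pcdhgc4 at 10.2 ± 0.766, Pcdhac2 at 10.1 ± 0.469 and Pcdhgb6 at 9.47 ± 0.704 CPM per kb. Neighbours in that order overlapped over the 4 controls, while Pcdhga11 was above Pcdhac2 and Pcdhgb6 in each control. The highest beta members per kb were Pcdhb20, at 5.01 ± 0.281, and Pcdhb17, at 4.82 ± 0.196, and the lowest tested member of all was Pcdha8, at 0.358 ± 0.0655 CPM per kb. In these controls 3 of the 5 C-types were thus among the 5 members of highest level per kb, while Pcdhgc5 (1.30 ± 0.0741) and Pcdhac1 (1.05 ± 0.118) were low. Own exon takes in every annotated transcript, also those with a retained intron, which can lower the level per kb. Pcdhgc5 has such a transcript and 4606 own bases, against 2559 for Pcdhac1.

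**Figure D2:**
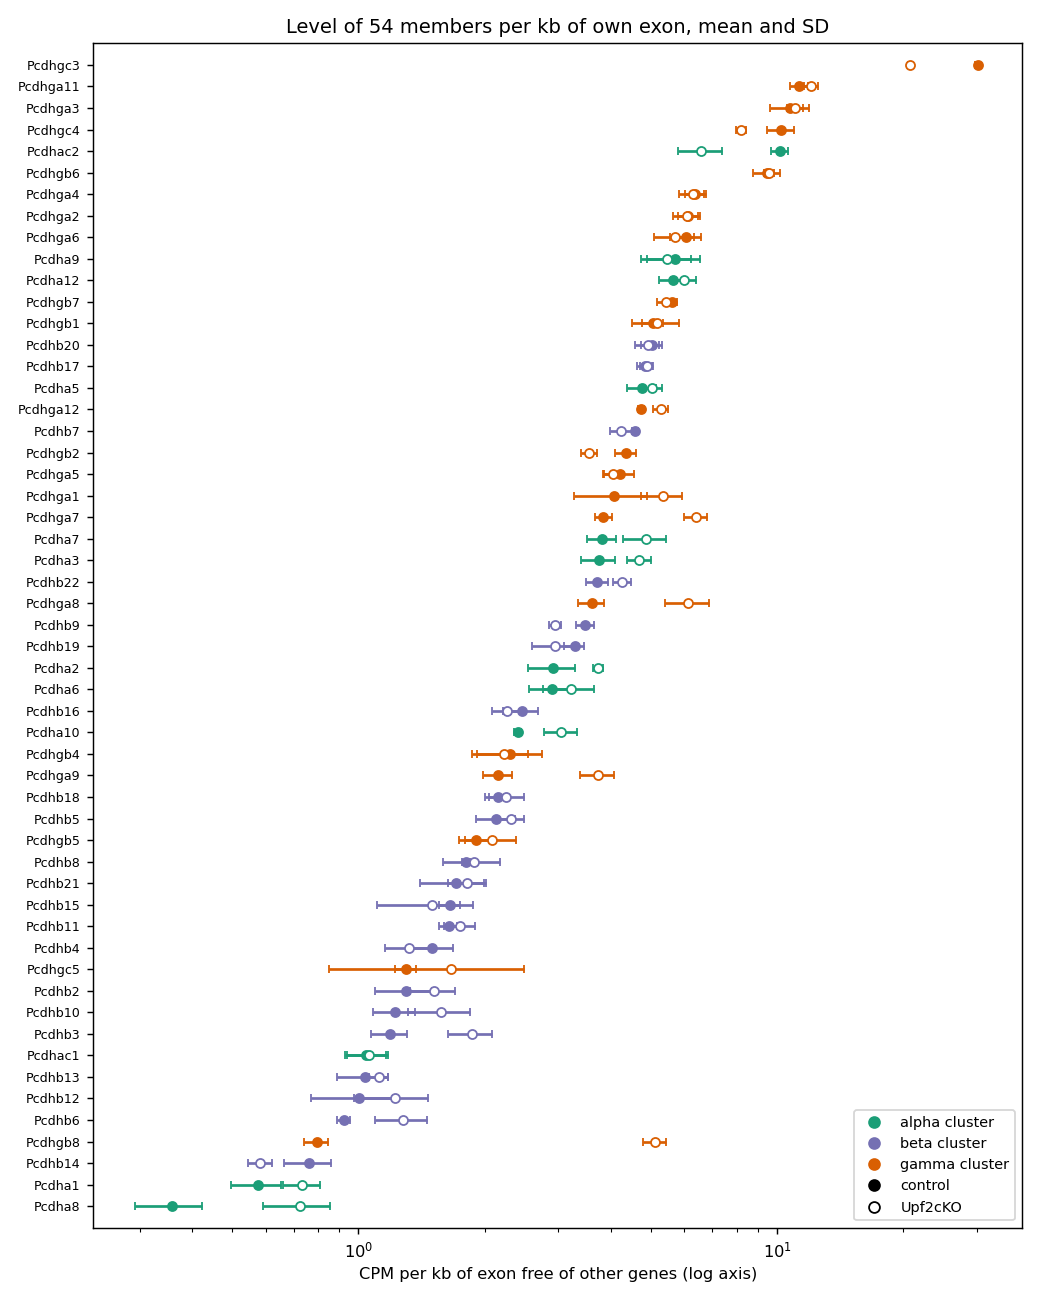
Level of the 54 tested members in CPM per kb of exon free of other genes (log axis), ordered by the control mean, with filled points for control, open points for Upf2cKO, and bars for the SD over 4 libraries. Pcdhgc3 is highest in both groups, at 30.1 in control and 20.8 in Upf2cKO. Pcdhgb8 is at 0.794 in control, near the low end of the order, and at 5.11 in Upf2cKO.

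Among the C-types, 3 of 5 fell and none rose, where 26.3% of all genes tested fell and 36.7% rose. Pcdhac2, an alpha isoform known for its role in the tiling of serotonergic axons, stood at 30.95, 31.07, 28.65 and 31.99 CPM in controls 1 to 4 and at 22.07, 21.92, 18.56 and 17.27 CPM in Upf2cKO 1 to 4. Every Upf2cKO library was below every control, and Pcdhac2 fell by 0.62 on the log2 scale (SE 0.0818, adjusted p = 6.53e-05). Pcdhgc3, a gamma isoform that has been linked to Wnt signalling through Axin1 and to dendrite branching, stood at 54.14, 55.90, 54.23 and 54.88 CPM in the controls and at 37.68, 37.81, 38.50 and 37.43 CPM in Upf2cKO. The groups lay far apart with little spread inside either, and Pcdhgc3 fell by 0.53 on the log2 scale (SE 0.0355, adjusted p = 3.84e-07).

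Pcdhgc4 is the gamma isoform that neurons, interneurons in particular, need to survive. Its values were 35.09, 34.75, 32.87 and 39.19 CPM in the controls and 28.67, 29.23, 28.84 and 27.40 CPM in Upf2cKO. The groups again did not overlap, and Pcdhgc4 fell by 0.31 on the log2 scale (SE 0.0567, adjusted p = 0.000699). Each of these 3 calls was made under every alternative setting. Pcdhac1, the first C-type of the alpha cluster, stood at 3.06, 2.76, 2.38 and 2.50 CPM in the controls and at 3.14, 2.48, 2.72 and 2.50 CPM in Upf2cKO. Its groups overlapped fully, with a log2 difference of 0.02 (SE 0.115, adjusted p = 0.899). Pcdhgc5, the last gene of the gamma cluster, stood at 6.31, 5.84, 6.21 and 5.57 CPM in the controls and at 13.24, 6.64, 5.60 and 5.20 CPM in Upf2cKO. Only the library Upf2cKO 1, which also held the high Camk2a and Mbp, was far above the rest. The log2 difference of Pcdhgc5 was 0.25 (adjusted p = 0.389) with that library and -0.05 (adjusted p = 0.693) without it.

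Because Pcdhac2, Pcdhgc3 and Pcdhgc4 fell while other members of their clusters rose, the make-up of both clusters shifted. In the alpha cluster the shift of the C-types was that of Pcdhac2, from 28.29% to 18.35% of the sum. Pcdhac1 held 2.46% in control and 2.50% in Upf2cKO. Pcdhgc5 held 1.84% and 2.27% of the gamma sum. Of the summed alpha CPM, the C-types held 29.99%, 30.32%, 31.44% and 31.28% in controls 1 to 4 and 22.87%, 21.85%, 19.84% and 18.83% in Upf2cKO 1 to 4. All 4 Upf2cKO libraries were lower, and the mean share went from 30.76% ± 0.713 to 20.85% ± 1.84 (SD, n = 4). In the gamma cluster the C-types held 29.71%, 29.40%, 29.37% and 29.83% of the sum in the controls and 23.23%, 21.61%, 21.99% and 21.36% in Upf2cKO. The mean gamma share went from 29.58% ± 0.228 to 22.05% ± 0.832, with no overlap, and the sum over the 5 C-types was 129.6 ± 4.03 CPM in the controls and 96.7 ± 6.36 CPM with Upf2cKO. These shares are of CPM and not per length, so they describe a shift between groups and not which isoform is most abundant. No test was made on sums or shares of members.

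**Figure D3:**
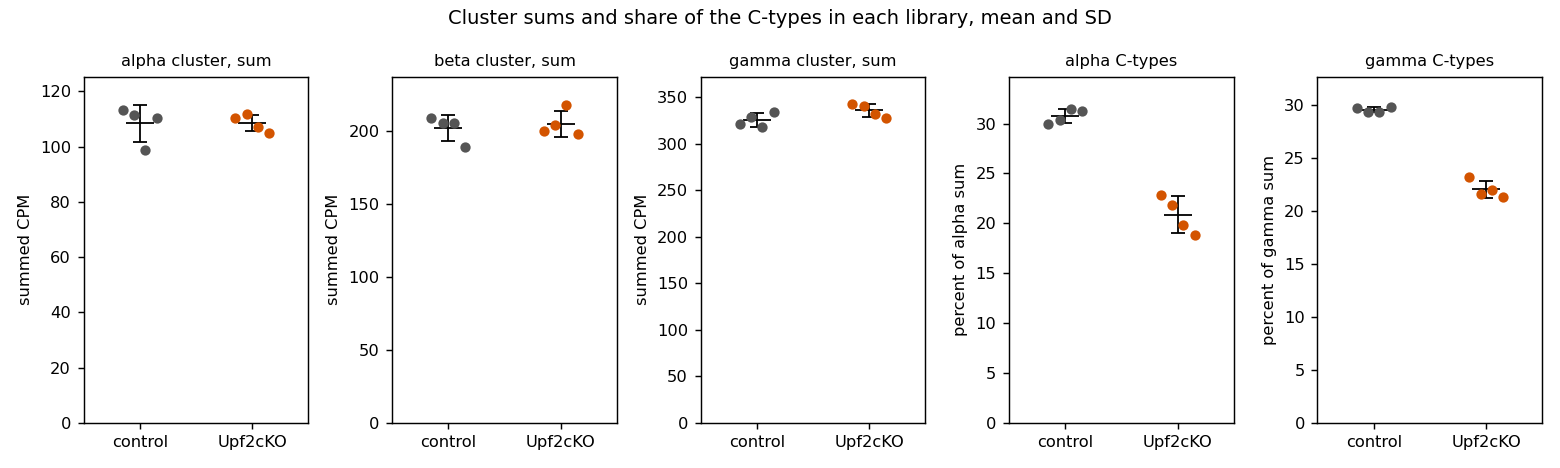
Summed CPM of the alpha, beta and gamma clusters, and the share of each sum held by the C-types in the alpha and gamma clusters, with 1 point per library and the mean and SD of 4 libraries. The sums of the groups overlap in each cluster (the mean is 108.5 in both groups for alpha), while the C-type shares separate fully (30.76% against 20.85% for alpha, 29.58% against 22.05% for gamma).

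Pcdhgb8 was the member that changed most. It stood at 2.11, 1.96, 2.06 and 1.81 CPM in controls 1 to 4 and at 11.64, 13.05, 13.56 and 12.84 CPM in Upf2cKO 1 to 4. The lowest Upf2cKO library was above 5 times the highest control, and the rise was 2.63 on the log2 scale (SE 0.0824, adjusted p = 2.05e-09). Only 151 of the 16573 tested genes, Pcdhgb8 itself included, rose by at least as much. Its share of the gamma sum went from 0.611% ± 0.0529 to 3.81% ± 0.294.

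Pcdhgb8 (chromosome 18, 37761801 to 37841870) lies between Pcdhga11 and Pcdhga12. It differs from the other members in its annotation, being a polymorphic pseudogene in GENCODE and a transcribed pseudogene in RefSeq. In the reference transcript its longest reading frame has 743 codons, whereas the annotated coding sequence would span 931, and 3 exon junctions follow the stop codon of that frame, the last of them 337 bases downstream. For the other 57 members the longest frame over all annotated transcripts had 772 to 1006 codons, and 0 of the 57 had an exon junction after its stop. For the 22 beta genes among them this was given in advance, since their longest frame lies on a transcript of 1 exon. For the alpha and gamma genes among them it follows largely from their class, since they are annotated as protein coding. The contrast with Pcdhgb8, classed as a pseudogene, thus largely restates the annotation. Shorter frames on other transcripts were not counted. Some of these have such junctions, as the retained-intron transcript of Pcdhgc5 (871 codons, 2 junctions after the stop). Any link between the stop codon of Pcdhgb8 and its rise was not tested, and the strain of these mice may carry another allele than the reference. Its direct neighbours did not share the size of its change: Pcdhga11 differed by 0.09 (adjusted p = 0.190) and Pcdhga12 rose by 0.15 (adjusted p = 0.0165) on the log2 scale.

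**Figure D4:**
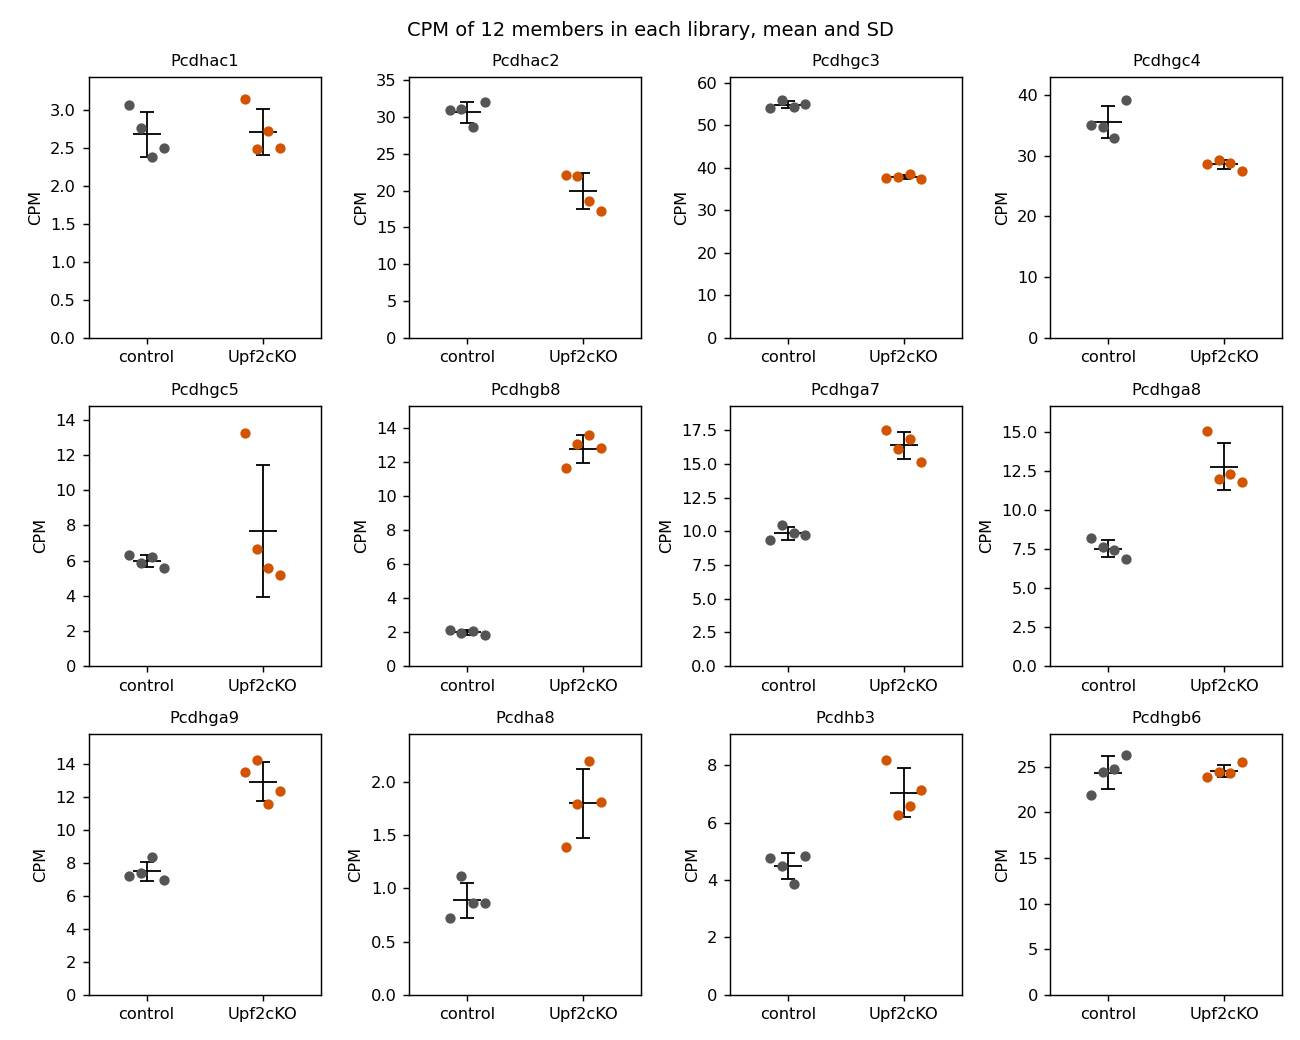
CPM of 12 members in each of the 8 libraries (control in grey, Upf2cKO in orange), with the mean and SD of each group of 4. Pcdhgb8, Pcdhga7, Pcdhga8, Pcdhga9, Pcdha8 and Pcdhb3 are higher in every Upf2cKO library, Pcdhac2, Pcdhgc3 and Pcdhgc4 are lower in every one, and the high mean of Pcdhgc5 comes from the 13.24 CPM of 1 library.

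Of the other gamma isoforms, Pcdhga7, Pcdhga8 and Pcdhga9 rose together. Like all gamma A and B genes, they are alternate isoforms chosen at random by single neurons. Pcdhga7 stood at 9.34, 10.44, 9.88 and 9.71 CPM in the controls and at 17.49, 16.08, 16.83 and 15.15 CPM in Upf2cKO. Pcdhga8 stood at 8.19, 7.61, 7.44 and 6.89 CPM in the controls and at 15.05, 11.99, 12.31 and 11.80 CPM in Upf2cKO. Pcdhga9 had 7.18, 7.42, 8.34 and 6.99 CPM in the controls against 13.51, 14.27, 11.60 and 12.38 CPM in Upf2cKO. For all 3 the groups did not overlap. The rises were 0.73 (SE 0.0642, adjusted p = 3.21e-06) for Pcdhga7, 0.75 (SE 0.0899, adjusted p = 3.33e-05) for Pcdhga8 and 0.78 (SE 0.0840, adjusted p = 1.51e-05) for Pcdhga9 on the log2 scale.

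These genes are neighbours along the gamma cluster, with Pcdhgb4 between the first and second and Pcdhgb5 between the second and the third, and neither of those passed the test. Pcdhgb4 had means of 8.28 ± 1.59 CPM in control and 8.0 ± 1.11 CPM in Upf2cKO (log2 difference -0.04, adjusted p = 0.837). Pcdhgb5 had 8.81 ± 0.773 and 9.63 ± 1.35 CPM (0.12, adjusted p = 0.364). The other gamma A calls were Pcdhga12 and Pcdhga1, which rose by 0.40 (adjusted p = 0.0282). The call of Pcdhga1 was lost without Upf2cKO 2 (adjusted p = 0.051) or Upf2cKO 4 (adjusted p = 0.0796), with no filter and after median-of-ratios rescaling, and that of Pcdhga12 after either rescaling. Pcdhgb2 was the only alternate gamma isoform to fall. It stood at 11.47, 12.74, 11.35 and 12.44 CPM in the controls and at 10.19, 10.18, 9.28 and 9.63 CPM in Upf2cKO, each Upf2cKO value being below each control, and it fell by 0.29 on the log2 scale (SE 0.0649, adjusted p = 0.00287).

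Among the gamma A and B members of highest CPM, Pcdhga3 and Pcdhgb6 did not pass. Pcdhga3 had 30.57, 25.32, 25.50 and 30.49 CPM in the controls and 27.94, 30.49, 27.84 and 28.65 CPM in Upf2cKO, with overlapping groups (log2 difference 0.04, adjusted p = 0.623). Pcdhgb6 had 21.86, 24.44, 24.69 and 26.21 CPM in the controls and 23.87, 24.36, 24.28 and 25.51 CPM in Upf2cKO (0.01, adjusted p = 0.844). The other uncalled members, Pcdhga2, Pcdhgb1, Pcdhga4, Pcdhga5, Pcdhga6, Pcdhgb7 and Pcdhga11, had log2 differences between -0.09 and 0.09. Pcdhga12, the other of these members, had 19.42, 19.00, 19.78 and 19.77 CPM in the controls and 22.71, 21.46, 22.03 and 20.66 CPM in Upf2cKO, a small rise with no overlap. Summed, the gamma A genes went from 150.4 ± 1.79 to 173.6 ± 2.52 CPM. The gamma B genes went from 78.8 ± 3.45 to 88.1 ± 2.76 CPM, and Pcdhgb8 alone went from 1.99 ± 0.132 to 12.8 ± 0.813 CPM within that sum.

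In the alpha cluster, 6 of the 10 alternate isoforms tested rose and none fell, where 36.7% of all genes tested rose and 26.3% fell. Pcdha8, the alpha member of lowest level among those tested, rose most: it stood at 0.72, 1.11, 0.86 and 0.86 CPM in the controls and at 1.39, 1.79, 2.19 and 1.81 CPM in Upf2cKO. The groups did not overlap, and the rise was 0.94 on the log2 scale (SE 0.163, adjusted p = 0.000501). Pcdha2 had 7.29, 8.63, 6.76 and 6.52 CPM in the controls and 9.06, 9.25, 9.44 and 9.62 CPM in Upf2cKO, with no overlap, a rise of 0.36 (SE 0.0888, adjusted p = 0.00473). Pcdha10 had 5.89, 6.15, 5.93 and 6.03 CPM in the controls and 8.55, 6.91, 7.53 and 7.51 CPM in Upf2cKO, also with no overlap, a rise of 0.34 (SE 0.0771, adjusted p = 0.00303). Pcdha3 (0.32, adjusted p = 0.00594) and Pcdha7 (0.33, adjusted p = 0.0105) rose by similar amounts, Pcdha7 with 1 overlapping library. Pcdha1 rose by 0.33 with an adjusted p of 0.0394, the weakest call of the cluster, made in only 6 of the 17 alternatives in which it was tested. It was lost without control 2, 3 or 4, without Upf2cKO 1, 2 or 3, without control 4 and Upf2cKO 4 together, with no filter, with TPM and after either rescaling, with adjusted p up to 0.106.

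The 3 alternate alpha members of highest CPM were not among the calls. Pcdha9 had 15.26, 14.69, 11.11 and 15.62 CPM in the controls and 11.31, 14.85, 12.80 and 15.30 CPM in Upf2cKO (log2 difference -0.06, adjusted p = 0.693). Pcdha5 had 11.94, 10.58, 10.21 and 11.90 CPM in the controls and 11.57, 12.11, 10.85 and 12.51 CPM in Upf2cKO (0.08, adjusted p = 0.391). Pcdha12 had 11.02, 11.95, 9.97 and 10.96 CPM in the controls and 12.64, 11.74, 11.49 and 10.68 CPM in Upf2cKO (0.08, adjusted p = 0.347). In all 3 the groups overlapped, as they did for Pcdha6 (0.14, adjusted p = 0.313). Summed over Pcdha1 to Pcdha12, the level went from 75.2 ± 5.21 to 85.9 ± 1.03 CPM, and with Pcdhac2 falling by a similar amount the whole cluster summed to 108.5 ± 6.66 CPM in the controls and 108.5 ± 3.01 CPM with Upf2cKO.

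The beta genes, which lack the shared constant exons, had 28.6% of their tested members called, against 58.3% of the alpha and 42.9% of the gamma members. All 3 shares were below the 63.0% called over all genes tested, and they were not tested against each other. Pcdhb3 rose most, from 4.78, 4.48, 3.88 and 4.85 CPM in the controls to 8.20, 6.26, 6.59 and 7.16 CPM in Upf2cKO. The groups did not overlap, and the rise was 0.64 on the log2 scale (SE 0.105, adjusted p = 0.000358). Pcdhb6 stood at 3.46, 3.45, 3.31 and 3.61 CPM in the controls and at 4.16, 4.26, 5.46 and 5.28 CPM in Upf2cKO, again with no overlap, a rise of 0.45 (SE 0.105, adjusted p = 0.00347). Pcdhb10 had 3.77, 3.13, 3.89 and 3.15 CPM in the controls and 4.32, 4.24, 5.60 and 3.84 CPM in Upf2cKO, a rise of 0.35 (SE 0.128, adjusted p = 0.0327), with Upf2cKO 4 just under the highest control. That call was lost without control 2, control 4 or Upf2cKO 3, without control 4 and Upf2cKO 4 together, with no filter and after either rescaling, with adjusted p up to 0.0891. Pcdhb22, a beta gene of high CPM, had 24.09, 22.50, 23.88 and 21.07 CPM in the controls and 24.42, 26.32, 26.64 and 27.61 CPM in Upf2cKO, a rise of 0.20 (SE 0.0592, adjusted p = 0.0135) that was lost without control 4 and Upf2cKO 4 together (adjusted p = 0.0864) and after median-of-ratios rescaling (adjusted p = 0.139).

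Pcdhb14 and Pcdhb9 fell. Pcdhb14 had 7.40, 6.96, 6.71 and 5.43 CPM in the controls and 5.20, 4.67, 5.45 and 4.93 CPM in Upf2cKO, a fall by 0.37 on the log2 scale (SE 0.103, adjusted p = 0.00842), although control 4 lay within the range of Upf2cKO and the call was lost with TPM (adjusted p = 0.0699). Pcdhb9 had 10.06, 11.30, 10.69 and 10.45 CPM in the controls and 9.37, 8.89, 8.73 and 9.04 CPM in Upf2cKO, with no overlap, and fell by 0.24 (SE 0.0613, adjusted p = 0.00647). The other beta genes of highest CPM did not pass. Pcdhb19 had 23.92, 23.46, 24.68 and 21.65 CPM in the controls and 20.58, 22.04, 23.67 and 17.82 CPM in Upf2cKO (log2 difference -0.16, adjusted p = 0.115). Pcdhb17 had 23.31, 21.87, 23.18 and 21.50 CPM in the controls and 21.77, 22.72, 23.86 and 22.62 CPM in Upf2cKO (0.02, adjusted p = 0.776). The 15 beta members that did not pass had log2 differences between -0.18 and 0.27, the highest being that of Pcdhb12 with 1.11 ± 0.256 CPM in the controls and 1.35 ± 0.270 CPM with Upf2cKO (adjusted p = 0.216).

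As sums over all their members, the beta genes gave 202.2 ± 8.95 CPM in the controls and 205.0 ± 9.01 CPM with Upf2cKO, and the gamma genes at 325.4 ± 7.22 and 335.8 ± 7.11 CPM. Without Pcdhgb8 the gamma sums were 323.4 ± 7.34 and 323.0 ± 7.61 CPM. The differences of the alpha and beta sums were smaller than the SD between libraries of a group. The gamma sum differed by more than 1 SD, and by less once Pcdhgb8 was left out. In bulk RNA such as this, fewer cells of a type and less RNA per cell cannot be told apart.

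Transcripts annotated as NMD targets were rare among the members: GENCODE lists such a transcript for Pcdha6, which did not pass, and for Pcdhgc3, which fell. Retained-intron transcripts are annotated for 2 alpha, 0 beta and 7 gamma genes. The deposited values are per gene, so the use of these transcripts was not measured.

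Genes that are no members but lie among or near the clusters were also examined. Of 32 genes between the first and last member or within 100 kb of either end, 10 were tested. Of these 10, 7 were higher and 1 was lower, where 36.7% of all genes tested rose and 26.3% fell. Among the 7, the means of Gm6756 (0.21 and 0.80 CPM) and Gm37446 (0.38 and 0.71 CPM) in control and Upf2cKO lay near the filter on low values. Diaph1, a formin that nucleates actin filaments and lies directly downstream of the gamma cluster, rose from 61.7 ± 2.90 to 86.9 ± 3.02 CPM (0.49, adjusted p = 4.20e-06). Hdac3, a histone deacetylase next to it, rose from 98.2 ± 1.97 to 120.6 ± 0.802 CPM (0.30, adjusted p = 1.76e-05), and Taf7, a subunit of the general transcription factor TFIID that lies between the beta and gamma clusters, from 23.2 ± 1.73 to 27.2 ± 2.34 CPM (0.22, adjusted p = 0.0189). The other neighbours called are noncoding and were chosen for mention after their values were seen. The lincRNA 3222401L13Rik, which ends just upstream of Pcdhga1, rose from 3.44 ± 0.253 to 8.46 ± 0.433 CPM (1.27, adjusted p = 2.48e-07). Gm26672, antisense across the region of Pcdhga10 to Pcdhga12, rose from 1.00 ± 0.0622 to 1.65 ± 0.277 CPM (0.65, adjusted p = 0.0019), and BC037039, antisense at the start of Pcdhgc3, fell by 0.35 (adjusted p = 0.0283).

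The factors that act on the clusters were mixed. Their counts stand beside 36.7% higher and 26.3% lower over all genes tested. Of 11 chromatin loop factors, 4 rose and 3 fell, with a median log2 change of 0.03. Ctcf, whose protein binds the promoters of the alternate isoforms, did not pass (161.8 ± 5.86 CPM in control, 154.3 ± 4.58 CPM in Upf2cKO, adjusted p = 0.155), whereas the cohesin subunit Rad21 fell by 0.28, to 171.5 ± 13.3 CPM from 208.1 ± 6.92 CPM (adjusted p = 0.00105), the cohesin regulator Pds5a rose by 0.25 (adjusted p = 0.00216) and the cohesin loader Nipbl rose from 154.9 ± 9.31 to 183.8 ± 11.5 CPM (adjusted p = 0.00293). Of 10 silencing factors, 6 rose and 2 fell, with a median of 0.16. Smchd1, which is known to repress clustered protocadherins in mice, rose from 132.3 ± 5.80 to 183.2 ± 10.01 CPM (0.47, adjusted p = 1.18e-05). Rest, a repressor of neuronal genes, rose from 24.3 ± 1.63 to 35.5 ± 1.5 CPM (0.55, adjusted p = 1.19e-05), and Ehmt1, a histone H3 methyltransferase, rose by 0.43 (adjusted p = 2.52e-05).

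Of 18 intracellular partners (kinases, and the actin regulators that bind the cytoplasmic domains of protocadherins), 2 rose and 10 fell, with a median of -0.17. Over all genes tested 36.7% rose and 26.3% fell, and the same shares stand beside the cadherin counts below. Cyfip1, a subunit of the WAVE complex, rose by 0.54 (adjusted p = 1.98e-07), and Ptk2, the focal adhesion kinase that the alpha and gamma constant domains inhibit, rose by 0.36 (adjusted p = 1.56e-05). Ret, a receptor tyrosine kinase, fell by 0.58 (adjusted p = 0.000703). Among other cadherins, 1 of 12 nonclustered protocadherins rose and 4 fell, with a median of -0.16. Those counts became 2 and 7 without Upf2cKO 1, 1 and 7 after median-of-ratios rescaling and 3 and 2 with TPM. Pcdh12, found mainly in endothelium, fell by 0.63 (adjusted p = 0.00011), and Pcdh11x rose by 0.60 (adjusted p = 0.000285). Of 16 classical cadherins tested, 4 rose and 5 fell, including Cdh24 (1.27, adjusted p = 2.07e-07) and Cdh8 (-0.61, adjusted p = 1.86e-06). Of 8 large cadherins, 2 rose and 3 fell, including Celsr3 (0.63, adjusted p = 3.99e-05), needed for axon tracts, and Fat1 (-0.72, adjusted p = 3.40e-06).

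Markers of several cell types moved in the same libraries as the members. The counts below stand beside 36.7% of all genes tested that rose and 26.3% that fell. Of 15 radial glia markers, 12 fell and none rose, and their summed level was 2850 to 2900 CPM in the controls and 2130 to 2380 CPM in Upf2cKO. Of 16 excitatory neuron markers, 11 fell and 3 rose, with sums of 3740 to 4020 and 2870 to 3330 CPM. Interneuron markers went the other way, 11 of 12 rising and 1 falling, with sums of 444 to 507 and 617 to 737 CPM, as did microglia markers, 8 of 10 rising, with sums of 55.5 to 76.5 and 136 to 200 CPM. Each of these 4 lists had 0 genes under 0.5 CPM in every library. Endothelial markers fell in 8 of 10 cases. The part of these shifts in the values of the members, in the falls of 3 C-types and in the rise of Pcdhgb8 alike, was not tested.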

How the data were processed

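RNA of E18.5 cortex was sequenced in 8 libraries with a stranded kit, per the labels' protocols; the labels call it polyA RNA but name a kit for total RNA, so the selection is uncertain. Per the submitters' processing notes, the tools were fastp 0.23.4, STAR 2.7.11a, Picard 3.1.1, MultiQC 1.25 and DESeq2, with the build mm10; the counting tool and the annotation were not given in the sources used here. Deposited by the authors were 1 CPM and 1 TPM table by Ensembl identifier, rounded to 2 decimals, the TPM values being scaled by gene length as well. Since CPM values are relative to their library, rises elsewhere lower them.

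Symbols, exons and gene classes came from GENCODE M21 (mm10), which named 55227 of 55487 identifiers. The gene lengths implied by CPM and TPM matched its exon lengths within 1% for 98.2% of 9454 genes and for all 54 tested members. The depth came from the size of the steps by which low values differ, where 100.0% came out whole within 0.15 reads (chance 30%), which makes 1 read worth 0.00641 to 0.01036 CPM. Rounding kept whole reads from being recovered for every gene, so no count test was run.

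The test was that of limma 3.58.1 in R 4.3.3, two-sided, using an intensity trend without covariates, applied to log2(CPM + 0.1) of the 16573 genes that reached 0.5 CPM in 4 or more of the 8 libraries. Benjamini-Hochberg adjustment ran over all of them and the threshold was 0.05. All fold changes refer to log2(CPM + 0.1), and low genes therefore change by more than the scale shows. The test was tried on simulated data with known folds. Members and gene lists were chosen with earlier results of these data known. Values per library are given for the C-types and, in each cluster, for the 3 tested members of highest CPM and the called members of largest rise and fall; Pcdha4 and Pcdhb1 were added. From each other list up to 3 called genes of smallest adjusted p are named, and Ctcf, Camk2a, Mbp and Ttr were added after their values were seen. Alternatives were other pseudocounts and filters, TPM, 2 rescalings, the replicate block, no intensity trend, and leaving out libraries. Replicate numbers were not taken to pair the samples.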

Additional observations from a re-analysis of the deposited data

Results flagged for a closer look

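In groups of 4 libraries, a value was marked where the highest or lowest library lay so far out that its gap to the nearest other library exceeded the critical ratio of Dixon's test at the 95% level, as a part of the range of the group. Of 114 groups checked over the members and sums, 3 were marked, and chance marks about 1 in 20. Pcdhb5 in the controls was marked because control 1, at 8.74 CPM, lay above controls at 7.01 to 7.26 CPM. Pcdhga8 was marked because Upf2cKO 1, at 15.05 CPM, lay above Upf2cKO libraries at 11.80 to 12.31 CPM, and this library also stood apart in Camk2a and Mbp. The summed CPM of the beta cluster was marked because control 4, at 188.9 CPM, lay below controls at 205.5 to 208.7 CPM.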

How the results depend on the processing

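Of the 54 tested members, 16 of the 22 calls held under every alternative in which they were tested, and 29 of the 32 uncalled members stayed uncalled in each; Pcdhb7, Pcdhb19 and Pcdhgb5 passed under some. With the authors' TPM, 36.7% of all genes tested were higher and 16.7% lower. The number of beta members higher (4) became 2 after median-of-ratios rescaling and 2 without control 4 and Upf2cKO 4; the number lower (2) became 1 with TPM and 4 after that rescaling. The log2 ratios of the summed levels of the alpha, beta and gamma clusters (0.000598, 0.0198 and 0.0452) were 0.0752, 0.0879 and 0.113 with TPM and -0.0867, -0.0668 and -0.0424 after median-of-ratios rescaling, and 0.00372 for gamma after trimmed-mean rescaling. The rise of the Pcdhgb8 share (3.20 percentage points) was 3.599 with TPM. The cause was not tested.

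Neighbours higher (7) numbered 4 with the filter at 2 CPM. Neighbours lower (1) numbered 0 with no filter, with the filter at 2 CPM, with TPM and without control 4 and Upf2cKO 4, 2 after median-of-ratios rescaling, and 0 to 1 when single libraries were left out. After that rescaling the lists had 2 loop factors higher (4 before), 2 classical cadherins higher (4), 3 silencing factors higher (6) and 7 nonclustered protocadherins lower (4). With TPM, nonclustered protocadherins numbered 3 higher (1) and 2 lower (4), and loop factors 1 lower (3). Silencing factors lower (2) numbered 1 with no filter, with TPM, with no intensity trend and without control 4 and Upf2cKO 4, and 1 to 2 when single libraries were left out. Leaving out single libraries gave 1 to 2 nonclustered protocadherins higher and 4 to 7 lower.

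Samples of the same replicate number had correlations of their deviations of 0.423, 0.0519, 0.523 and 0.186. For replicates 1 and 3 the control and Upf2cKO samples matched each other best, and for 2 and 4 not in both directions. The labels name no batch, and the numbers were not taken as pairs. Whether equal numbers share a batch was not tested. With the replicate block, members higher and lower numbered 6 and 1 in the alpha, 4 and 3 in the beta and 6 and 3 in the gamma cluster; neighbours lower numbered 2 and nonclustered protocadherins lower 7.

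Among single members, changes of sign were confined to those that did not pass, whose log2 differences follow. After median-of-ratios rescaling they were -0.00996 for Pcdha5, -0.00243 for Pcdha12, -0.066 for Pcdhac1, -0.0364 for Pcdhb8, -0.0692 for Pcdhb17, -0.0312 for Pcdhb18, -0.0434 for Pcdhga3, -0.0599 for Pcdhgb1 and -0.0723 for Pcdhgb6. With TPM they were 0.000303 for Pcdha9, 0.0279 for Pcdhb20, 0.0544 for Pcdhga2, 0.0413 for Pcdhga4, 0.00831 for Pcdhga5, 0.0224 for Pcdhgb4 and 0.0126 for Pcdhgb7. After trimmed-mean rescaling they were -0.0218 for Pcdhac1, -0.0236 for Pcdhb17, -0.0144 for Pcdhgb1 and -0.0267 for Pcdhgb6. Without control 4 and Upf2cKO 4 they were -0.0439 for Pcdhb8, -0.000624 for Pcdhb17, -0.0316 for Pcdhb21, 0.0452 for Pcdhga2 and 0.0263 for Pcdhgb4. When single libraries were left out, they ran from -0.172 to 0.0232 for Pcdha9, -0.0523 to 0.0828 for Pcdhac1, -0.0279 to 0.157 for Pcdhb8, -0.00546 to 0.0384 for Pcdhb17, -0.00749 to 0.106 for Pcdhb18, -0.073 to 0.00313 for Pcdhb20, -0.0275 to 0.185 for Pcdhb21, -0.0518 to 0.0239 for Pcdhga2, -0.00207 to 0.0882 for Pcdhga3, -0.058 to 0.0697 for Pcdhgb1, -0.0529 to 0.0306 for Pcdhga4, -0.172 to 0.0503 for Pcdhgb4, -0.035 to 0.0519 for Pcdhgb6 and -0.0464 to 0.398 for Pcdhgc5.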
